A study of Mus musculus with 16 samples.

Results

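The lysosome and autophagy genes were a list of 52 genes fixed by name, and all 52 were measured among the 18193 genes of the array. Each gene was read by its brightest probe set, the one with the highest mean log2 intensity over 16 arrays, among probe sets annotated to that gene alone. The list held 2 transcription factors (regulators), 6 lysosomal membrane and lipid handling proteins, 9 cathepsins, 7 other hydrolases, 9 subunits or accessory proteins of the proton pump, 6 proteins of autophagy initiation and nucleation, 6 of the Atg8 conjugation machinery, 5 members of the Atg8 family and 2 cargo receptors.

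Liver RNA of 16 male mice, 12 to 20 weeks old, was hybridized to 1 Affymetrix whole-genome mouse array per mouse, in 4 groups of 4. The groups were PPARα-null mice (here knockout) of strain 129S4/SvJae fed Wy14643, knockout mice on control food, wild-type mice of strain 129S1/SvImJ fed Wy14643, and wild-type mice on control food. Wy14643 is a synthetic agonist of PPARα, the nuclear receptor that fatty acids activate in hepatocytes, and was mixed into the food at 0.1% by weight for 5 days. The null allele is in every cell of the knockout mice, not in the liver alone, and because the labels give each genotype its own substrain, the deletion and the substrain cannot be told apart. Values are log2 of the deposited intensity, and the response of a genotype is the difference of Wy14643 minus control food on that scale, given ± SE. A gene is called here where the limma fit over all 45037 probe sets gave an adjusted p (Benjamini-Hochberg) under 0.01 and a fold over 1.5.

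Lysosomes are acidic organelles in which hydrolases break down proteins, lipids and glycans that arrive by endocytosis or by autophagy. A vacuolar proton pump acidifies the lumen. In autophagy the Ulk kinases and a phosphatidylinositol kinase complex start a membrane sac, ubiquitin-like proteins of the Atg8 family are coupled to lipid on it by Atg7, Atg3 and the Atg12-Atg5-Atg16l1 complex, and the closed autophagosome fuses with a lysosome. In liver, autophagy is known to supply fuel during fasting and to deliver lipid droplets to lysosomes. Tfeb and Tfe3 are basic helix-loop-helix factors that bind an E-box in the promoters of many lysosomal genes.

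Promoter windows of 300 bases, from 250 before to 50 after a RefSeq start (GRCm38.p6), were matched by symbol for 41 of the 52 members. The E-box CACGTG, which reads the same on both strands, stood in at least 1 window of 15 of these 41 genes (36.6%), against 8.09% of 27025 genes in the same reference. Its longer form TCACGTGA, which contains that E-box, stood in 8 of 41 (19.5%) against 1.12%. A DR1, the repeat AGGTCA with 1 base between its copies to which PPARα binds with its partner RXR, was matched in that exact form on either strand in 0 of 41 members and in 0.0481% of all genes. Of the matched members, the E-box was present in 3 of 6 called higher in the response of wild-type mice to Wy14643, 1 of 4 called lower and 11 of 31 not called. A match is a run of letters, not a measured binding site. The 4 windows that follow belong to a cathepsin and a glycosidase called higher (Ctsd and Gla), a cathepsin called lower (Ctsa) and a membrane protein not called (Lamp1), each written 5′ to 3′ on the strand of its gene with every CACGTG in capitals.
Ctsd, chr7:142387778-142388077, minus strand: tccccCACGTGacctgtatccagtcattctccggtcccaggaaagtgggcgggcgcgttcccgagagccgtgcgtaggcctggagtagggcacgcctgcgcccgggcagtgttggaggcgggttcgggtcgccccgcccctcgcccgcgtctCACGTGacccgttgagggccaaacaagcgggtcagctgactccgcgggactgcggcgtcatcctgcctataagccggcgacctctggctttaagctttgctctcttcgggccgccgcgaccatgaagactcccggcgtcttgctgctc
Gla, chrX:134600956-134601255, minus strand: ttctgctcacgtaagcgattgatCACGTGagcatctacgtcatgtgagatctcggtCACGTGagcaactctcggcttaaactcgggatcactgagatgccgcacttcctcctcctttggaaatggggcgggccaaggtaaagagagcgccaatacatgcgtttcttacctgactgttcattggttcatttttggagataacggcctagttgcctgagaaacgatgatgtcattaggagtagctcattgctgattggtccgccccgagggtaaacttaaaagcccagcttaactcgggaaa
Ctsa, chr2:164833523-164833822, plus strand: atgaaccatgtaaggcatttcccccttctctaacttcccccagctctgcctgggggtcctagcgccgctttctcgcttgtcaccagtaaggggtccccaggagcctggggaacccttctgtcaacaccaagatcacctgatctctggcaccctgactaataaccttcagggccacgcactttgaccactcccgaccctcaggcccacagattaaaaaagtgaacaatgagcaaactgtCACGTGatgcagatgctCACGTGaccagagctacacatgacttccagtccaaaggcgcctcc
Lamp1, chr8:13158911-13159210, plus strand: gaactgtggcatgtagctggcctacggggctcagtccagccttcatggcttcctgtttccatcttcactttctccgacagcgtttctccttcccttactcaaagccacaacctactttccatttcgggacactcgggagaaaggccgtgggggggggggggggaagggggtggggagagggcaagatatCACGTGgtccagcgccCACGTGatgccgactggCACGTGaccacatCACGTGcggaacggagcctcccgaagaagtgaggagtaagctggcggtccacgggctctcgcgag

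Counted from the start base as 0, the E-boxes began at -245 and -98 in Ctsd, at -227 and -194 in Gla, at -12 and 5 in Ctsa, and at -61, -45, -28 and -15 in Lamp1. Lamp1 held the most copies of the matched members and did not pass the test in any comparison, while Ctsd and Ctsa each held 2 and were called in opposite directions.

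Intensities had medians of 4.43 to 4.72 per array and arrays of a group correlated at r = 0.987 to 0.995 across probe sets. All 10 hepatocyte markers listed lay above the median of every array. Ppara itself, measured first as a check of the labels, read 9.35, 9.47, 9.68 and 10.04 in knockout mice on Wy14643 and 9.15, 8.82, 9.48 and 9.71 in knockout mice on control food, against 10.80, 10.81, 10.82 and 10.70 in wild-type mice on Wy14643 and 9.77, 9.89, 10.07 and 9.96 in wild-type mice on control food, so that its probe set kept signal in the knockout mice. The knockout minus wild-type difference was -1.15 ± 0.17 (adjusted p = 5.1e-05) on Wy14643 and -0.63 ± 0.17 (adjusted p = 0.14) on control food. Where its probe set lies relative to the deleted part was not examined here, so that the value does not check the knockout. Ehhadh read 10.25, 10.20, 10.19 and 10.02 in knockout mice on Wy14643 and 9.88, 9.70, 9.70 and 9.88 in knockout mice on control food, against 13.43, 14.02, 13.43 and 13.33 in wild-type mice on Wy14643 and 10.25, 10.56, 10.29 and 9.75 in wild-type mice on control food. Ehhadh, a peroxisomal enzyme of fatty acid oxidation and a known PPARα target, was thus high in wild-type mice on Wy14643 alone, with a knockout response of 0.38 ± 0.16 (adjusted p = 0.486) against a wild-type response of 3.34 ± 0.16 (adjusted p = 5.46e-11). The 3′ minus 5′ log2 signals of the control transcripts had group medians of 1.17 to 1.23 for Actb and -0.01 to 0.09 for Gapdh. Replicate 4 of knockout on Wy14643 had the highest median intensity, 4.72, and the lowest Actb value of the 16 arrays, 0.99, with 1.21 to 1.27 in the rest of its group. Its Gapdh value was -0.03, with 0.06 to 0.10 in the rest of its group. That array was the lowest of its group in 19 of the 52 members, Becn1, Gusb, Atg7, Tfe3, Wipi2 and Atp6ap1 among them, and the highest in 20, and without it each call among the members was kept and none was added. Other arrays reached such counts too, with replicate 1 of that group the lowest in 20 and replicate 4 of wild type on Wy14643 the highest in 24.

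Of the 52 members, 45 had a mean log2 value above 6 and 7 did not, and no group mean of a member lay below 2.69, above the highest array median of 2.24. The SD within a group ran from 0.009 to 0.618 with a median of 0.107. In wild-type mice 8 members rose on Wy14643 against control food (15.4%; 7.72% of all 18193 genes were called higher). They were the sphingolipid activator precursor Psap, the aspartic protease Ctsd, the glycosidases Gla and Hexa, the conjugation factor Atg12, the Atg8 family members Map1lc3a and Map1lc3b, and the mitophagy receptor Bnip3. A further 4 fell (7.69%; 6.74% of all genes were called lower), namely the peptidases Ctsa, Ctsc and Ctss and the kinase Ulk1. The other 40 were not called, and the median over the 52 was -0.04, beside -0.03 over all genes. Among the 5170 genes with a mean log2 above 6, 12.4% were called higher and 15.9% lower, and 7 and 4 of the 45 members in that range were. Liver RNA comes from several cell types, and fewer cells of a type and less RNA per cell cannot be told apart.

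In knockout mice 0 of the 52 members passed the same limma test for Wy14643 against control food, and 0.0275% of all genes did. At an unadjusted p under 0.05 the count was 3 of 52, against 10.3% of all genes. Their differences ran from -0.34 to 0.49 with SEs of 0.07 to 0.22. The lowest adjusted p was 0.249, that of Bnip3, whose difference of 0.49 ± 0.14 in knockout mice stood beside 0.65 ± 0.14 in wild-type mice.

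Between the genotypes on Wy14643, 4 members were higher in knockout mice (7.13% of all genes were) and 7 were lower (8.12%). The 4 were Ctsa, Ctsl, Ctss and Neu1, and the 7 were Psap, Ctsd, Ctsf, Gla, Atg12, Map1lc3a and Map1lc3b. On control food 0 of 52 were called (0.544% of all genes were), with 6 of 52 (11.5%) at an unadjusted p under 0.05 in limma, beside 9.60% of all genes. The difference of the 2 responses, knockout minus wild type, was called in 5 members above 0 (Ctsa, Ctsc, Ctsh, Ctss and Neu1; 4.62% of all genes) and in 6 below 0 (Psap, Ctsd, Gla, Atg12, Map1lc3a and Map1lc3b; 5.38%). The calls of Ctss, Gla, Neu1 and Map1lc3b in that difference were lost without any 1 of 4, 6, 7 and 11 arrays, with adjusted p of at most 0.0166. These comparisons share arrays, so that a high or low wild-type group on Wy14643 enters 3 of them. In all, 16 members were called in at least 1 comparison and 36 in none.

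**Figure D1:**
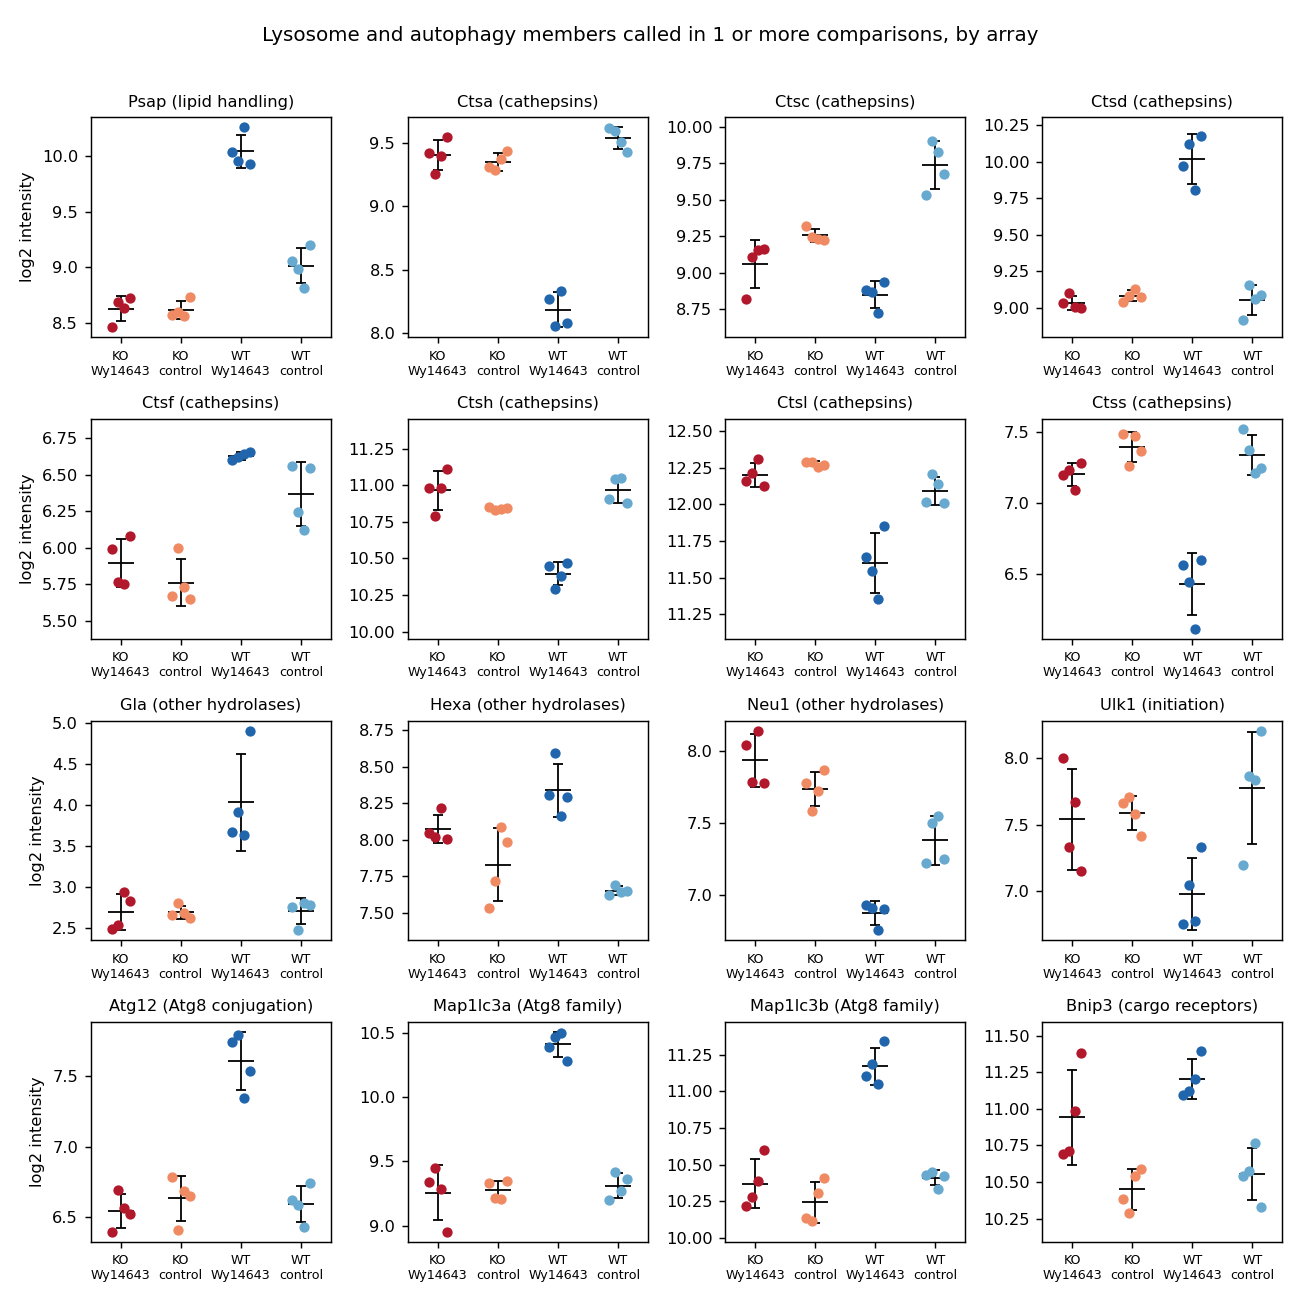
Log2 intensity (vertical axes, which do not start at 0) of the 16 members called in 1 or more comparisons, in knockout (KO) and wild-type (WT) mice on Wy14643 or control food. Each point is 1 array, the horizontal bar is the group mean and the whisker its SD. For Psap, Ctsd, Gla, Atg12, Map1lc3a, Map1lc3b and, by a small margin, Ctsf the 4 wild-type arrays on Wy14643 lie above the other 12. For Ctsa, Ctsh, Ctsl, Ctss and Neu1 they lie below them.

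The lysosomal hydrolases did not move as 1 block. Of 9 cathepsins, 7 had a wild-type response below 0 and 2 above 0, with a median of -0.49, but only Ctsa, Ctsc and Ctss were called lower and Ctsd was called higher. Ctsd, the main aspartic protease of the lysosome, rose in wild-type mice. Ctsd read 9.03, 9.10, 9.01 and 9.0 in knockout mice on Wy14643 and 9.04, 9.08, 9.13 and 9.08 in knockout mice on control food, against 9.97, 10.12, 9.80 and 10.18 in wild-type mice on Wy14643 and 8.92, 9.16, 9.06 and 9.09 in wild-type mice on control food. The 4 wild-type arrays on Wy14643 lay above all others and the remaining groups overlapped. The wild-type response of Ctsd was 0.96 ± 0.09 (adjusted p = 3.39e-07), a 1.95-fold rise, and knockout mice on Wy14643 were lower than wild-type mice by a difference of -0.98 ± 0.09 (adjusted p = 2.28e-07).

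Ctsa, the carboxypeptidase that also protects Neu1 and β-galactosidase in a complex, moved the other way. Ctsa read 9.42, 9.25, 9.40 and 9.54 in knockout mice on Wy14643 and 9.31, 9.28, 9.37 and 9.44 in knockout mice on control food, against 8.27, 8.06, 8.34 and 8.08 in wild-type mice on Wy14643 and 9.61, 9.59, 9.51 and 9.42 in wild-type mice on control food. Its wild-type response of -1.35 ± 0.09 (adjusted p = 5.51e-09) was the largest fall of the list, 2.54-fold, and the wild-type groups did not overlap. Neu1, the lysosomal sialidase of that complex, had a wild-type response of -0.51 ± 0.11 (adjusted p = 0.00228), below the fold required. Neu1 read 8.04, 7.79, 8.14 and 7.78 in knockout mice on Wy14643 and 7.78, 7.59, 7.72 and 7.87 in knockout mice on control food, against 6.93, 6.91, 6.76 and 6.90 in wild-type mice on Wy14643 and 7.22, 7.5, 7.55 and 7.25 in wild-type mice on control food. On Wy14643, knockout mice were higher by 1.06 ± 0.11 (adjusted p = 8.44e-07) for Neu1 and by 1.22 ± 0.09 (adjusted p = 1.84e-08) for Ctsa. When the probe sets of Neu1 were averaged, its difference was 0.56 ± 0.09 (adjusted p = 0.000184), under the fold, so that the call was lost. Its difference of the responses was then 0.35 ± 0.13 (adjusted p = 0.0900). Glb1, the β-galactosidase, was dim at 3.33 to 3.53 in the group means and had a wild-type response of -0.16 ± 0.09 (adjusted p = 0.281).

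The cysteine protease Ctss, which in antigen-presenting cells trims the invariant chain, fell in wild-type mice. Ctss read 7.20, 7.23, 7.09 and 7.28 in knockout mice on Wy14643 and 7.48, 7.26, 7.47 and 7.36 in knockout mice on control food, against 6.57, 6.45, 6.12 and 6.60 in wild-type mice on Wy14643 and 7.52, 7.37, 7.21 and 7.25 in wild-type mice on control food. Every wild-type array on Wy14643 lay below every other array. The wild-type response was -0.91 ± 0.11 (adjusted p = 7.03e-06) and the knockout response -0.19 ± 0.11 (adjusted p = 0.633). Ctsc, which activates granule proteases, ran from 8.82 to 9.16 in knockout mice on Wy14643 and from 9.23 to 9.32 in knockout mice on control food, against 8.72 to 8.93 in wild-type mice on Wy14643 and 9.53 to 9.90 in wild-type mice on control food. The genotypes overlapped on Wy14643, and the wild-type response was -0.88 ± 0.10 (adjusted p = 3.38e-06). On control food its knockout minus wild-type difference was -0.48 ± 0.10 (adjusted p = 0.0349), which did not pass.

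Most markers of macrophages fell in wild-type liver on Wy14643, as Ctss and Ctsc did. Of 15 Kupffer cell and macrophage markers, 10 fell in the wild-type response and 0 rose, with a median of -0.81. Clec4f, a Kupffer cell lectin, fell by 1.04 ± 0.14 on the log2 scale, Adgre1 by 0.96 ± 0.13, Vsig4 by 0.94 ± 0.13 and Csf1r by 0.75 ± 0.13. On Wy14643 the knockout minus wild-type difference was 1.10, 0.99, 0.98 and 0.96 for these markers. It was 0.77 for Ctss but 0.21 for Ctsc. The summed intensity of the 15 ran from 1612 to 2260 in knockout mice on Wy14643, from 1844 to 2276 in knockout mice on control food, from 925 to 1191 in wild-type mice on Wy14643 and from 1622 to 1878 in wild-type mice on control food. The wild-type arrays on Wy14643 were the lowest and did not overlap with any other group. Fcgr1 lay at or below the array median in every group. Ctss and Ctsc are expressed strongly in macrophages, and the part of these cells in their values was not tested.

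Other marker lists moved too, some of them split in direction. The 8 stellate cell markers summed to 2224 to 2696 in knockout mice on Wy14643, 2105 to 2441 in knockout mice on control food, 1334 to 1537 in wild-type mice on Wy14643 and 1975 to 2138 in wild-type mice on control food, with Des at or below the array median. They were split in the wild-type response. Pdgfrb, Reln and Dcn were called lower (-1.11 ± 0.16, -0.78 ± 0.10 and -0.66 ± 0.10). Lrat, Col1a1 and Col3a1 lay above 0 (0.80 ± 0.34, 0.66 ± 0.26 and 0.35 ± 0.32) and were not called. Col1a1 averaged 2.19 in wild-type mice on control food, below the highest array median of 2.24, so that its response gives a bound only. The 10 hepatocyte markers summed to 62230 to 65785 in wild-type mice on Wy14643, against 77559 to 83095 over the other 3 groups, and 3 of the 10 were called lower in the wild-type response. Each of the 10 had a wild-type response below 0, from -0.97 for Cps1 to -0.07 for Alb. Of 6 monocyte and neutrophil markers, 4 (Ccr2, S100a8, S100a9 and Itgam) lay at or below the array median in every group, while Cd14 rose in the wild-type response (0.77 ± 0.15) and Plac8 was not called (-0.57 ± 0.18). Cd14 was dim, with a mean of 3.23 in wild-type mice on Wy14643 and means of 2.39 to 2.46 over the other 3 groups. The 10 sinusoidal endothelial markers summed to 1130 to 1240 in wild-type mice on Wy14643, against 1326 to 1715 over the other 3 groups. In the wild-type response Lyve1 rose (2.63 ± 0.25), Clec4g and Tek fell (-0.62 ± 0.11 and -0.75 ± 0.18) and 7 were not called. Lyve1 averaged 5.10 in wild-type mice on Wy14643 and 2.28 to 2.84 over the other 3 groups, near the highest array median, so that its rise starts from dim values. The 3 erythroid markers, of which Hba-a1 and Slc4a1 lay at or below the array median, summed to 91.5 to 126 in wild-type mice on Wy14643, against 495 to 767 over the other 3 groups. That sum followed Alas2 alone, with a wild-type response of -2.32 ± 0.11, beside 0.05 ± 0.09 for Hba-a1 and -0.01 ± 0.12 for Slc4a1. The part of these cells in the members' values was not tested.

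**Figure D2:**
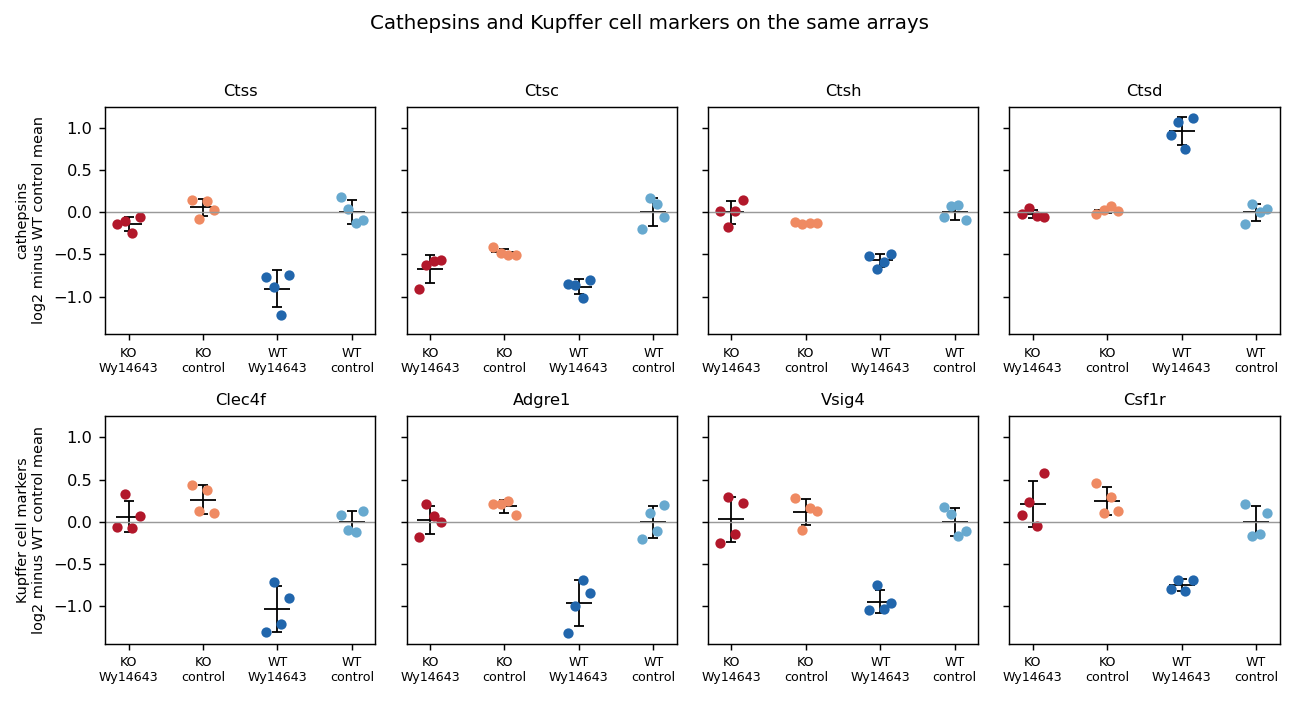
Log2 intensity minus the mean of wild-type mice on control food (vertical axis) for the cathepsins Ctss, Ctsc, Ctsh and Ctsd (top) and the Kupffer cell markers Clec4f, Adgre1, Vsig4 and Csf1r (bottom). Each point is 1 array, the bar is the group mean and the whisker its SD. Ctss and Ctsh are low, like the markers, on the 4 wild-type arrays on Wy14643 alone, Ctsd is high there, and Ctsc is also below 0 in both knockout groups.

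The cysteine protease Ctsl was higher in knockout than in wild-type mice on Wy14643, by 0.60 ± 0.10 (adjusted p = 0.00017). Ctsl read 12.16, 12.21, 12.31 and 12.13 in knockout mice on Wy14643 and 12.29, 12.29, 12.26 and 12.27 in knockout mice on control food, against 11.64, 11.55, 11.35 and 11.85 in wild-type mice on Wy14643 and 12.02, 12.21, 12.14 and 12.01 in wild-type mice on control food. The wild-type arrays on Wy14643 were the lowest, and the wild-type response of -0.49 ± 0.10 (adjusted p = 0.0012) fell short of the fold. Without replicate 3 of knockout or of wild type on Wy14643 the genotype difference on Wy14643 was 0.57 or 0.52, under the fold, so that the call was lost. Ctsh, an aminopeptidase, ran from 10.29 to 10.47 in wild-type mice on Wy14643 and from 10.79 to 11.11 over the other 3 groups. Its wild-type response was -0.57 ± 0.09 (adjusted p = 7.18e-05), or 1.49-fold lower, which passed the fold at -0.60 to -0.59 without replicate 1 or 4 of either wild-type group, and the difference of the responses 0.70 ± 0.12 (adjusted p = 0.000608). Ctsb and Ctsz had wild-type responses of -0.28 ± 0.07 (adjusted p = 0.0119) and -0.35 ± 0.08 (adjusted p = 0.00454), both under the fold.

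Ctsf, another cysteine protease, was lower in knockout than in wild-type mice on Wy14643. Ctsf read 5.99, 5.77, 5.76 and 6.08 in knockout mice on Wy14643 and 5.67, 6.0, 5.73 and 5.65 in knockout mice on control food, against 6.60, 6.62, 6.64 and 6.66 in wild-type mice on Wy14643 and 6.56, 6.24, 6.12 and 6.55 in wild-type mice on control food. The knockout arrays lay below the wild-type arrays on each food, without overlap. The knockout minus wild-type difference was -0.73 ± 0.12 (adjusted p = 0.000124) on Wy14643 and -0.61 ± 0.12 (adjusted p = 0.0165) on control food, where it missed the threshold. Without replicate 3 of wild type on control food that second difference was called, at -0.69 (adjusted p = 0.00899). Its wild-type response was 0.26 ± 0.12 (adjusted p = 0.138).

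Among the other hydrolases Hexa and Gla rose in wild-type mice. Hexa is the α subunit of β-hexosaminidase. Hexa read 8.05, 8.02, 8.22 and 8.01 in knockout mice on Wy14643 and 7.54, 7.72, 8.09 and 7.98 in knockout mice on control food, against 8.31, 8.59, 8.16 and 8.30 in wild-type mice on Wy14643 and 7.62, 7.69, 7.64 and 7.65 in wild-type mice on control food. The wild-type groups did not overlap, with a response of 0.69 ± 0.12 (adjusted p = 0.000299), while the knockout groups did, with 0.24 ± 0.12 (adjusted p = 0.555). The difference of the responses was -0.44 ± 0.17 (adjusted p = 0.105), so that a difference between the genotypes in this response was not shown. Gla, the α-galactosidase that clears globotriaosylceramide, was dim throughout. Gla read 2.48, 2.53, 2.93 and 2.82 in knockout mice on Wy14643 and 2.65, 2.80, 2.68 and 2.61 in knockout mice on control food, against 3.66, 3.91, 3.63 and 4.90 in wild-type mice on Wy14643 and 2.76, 2.47, 2.80 and 2.78 in wild-type mice on control food. In wild-type mice the response was 1.33 ± 0.21 (adjusted p = 0.00012), and without replicate 4 of wild type on Wy14643, the highest array, it was 1.03.

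The second probe set of Gla went against this value, at -0.44 ± 0.11 (adjusted p = 0.00868, fold under 1.5), and the call ended when 16 was added before the log2, at 0.54, or when the gene's probe sets were averaged, at 0.32. The remaining hydrolases were not called in any comparison. The glucuronidase Gusb, the acid ceramidase Asah1 and the tripeptidyl peptidase Tpp1 had wild-type responses of -0.03 ± 0.14, 0.17 ± 0.10 and -0.26 ± 0.08.

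Of the 6 lysosomal membrane and lipid handling proteins only Psap was called, the precursor that is cut into the saposins needed for sphingolipid breakdown. Psap read 8.46, 8.69, 8.64 and 8.72 in knockout mice on Wy14643 and 8.57, 8.60, 8.56 and 8.73 in knockout mice on control food, against 10.03, 9.96, 10.26 and 9.93 in wild-type mice on Wy14643 and 9.06, 8.98, 8.81 and 9.20 in wild-type mice on control food. The 4 wild-type arrays on Wy14643 were the highest, the wild-type arrays on control food came next, and both knockout groups were lowest. The wild-type response was 1.03 ± 0.10 (adjusted p = 6.11e-07), and the knockout minus wild-type difference -1.42 ± 0.10 (adjusted p = 9.9e-09) on Wy14643 and -0.40 ± 0.10 (adjusted p = 0.115) on control food. A second Psap probe set gave a wild-type response of 1.10 ± 0.14.

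The membrane glycoproteins Lamp1 and Lamp2, the cholesterol transporters Npc1 and Npc2 and the calcium channel Mcoln1 were not called. Lamp1 lay between 10.81 and 11.29 on all arrays, with a wild-type response of -0.14 ± 0.10 (adjusted p = 0.382). Lamp2 had -0.36 ± 0.10 (adjusted p = 0.0115) by its brightest probe set, while 2 other Lamp2 probe sets were called lower at -0.70 ± 0.08 and -0.60 ± 0.09. A Ctsb probe set also differed from the brightest one, at -1.29 ± 0.14 (called lower). These were the 3 of 72 further probe sets of the members that were called in the wild-type response where the brightest was not, and 0 of 72 were called opposite to it. Npc1, Npc2 and Mcoln1 had wild-type responses of -0.06 ± 0.12, 0.06 ± 0.09 and -0.13 ± 0.15.

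Of the 9 proton pump members limma called 0 in any comparison, while 4 of 9 (44.4%) had an unadjusted p under 0.05 in the wild-type response, beside 36.0% of all genes. All 9 wild-type responses were above 0, from 0.03 for Atp6ap1 to 0.41 for Atp6v0e, with a median of 0.19. Atp6v0e, a membrane subunit, had the largest of them. Atp6v0e read 8.38, 8.25, 8.26 and 8.63 in knockout mice on Wy14643 and 8.32, 8.39, 8.39 and 8.24 in knockout mice on control food, against 8.79, 8.83, 8.70 and 8.94 in wild-type mice on Wy14643 and 8.45, 8.32, 8.41 and 8.43 in wild-type mice on control food. The wild-type groups did not overlap, and the response of 0.41 ± 0.09 (adjusted p = 0.00366) passed the p threshold but was 1.33-fold. Atp6v1h, a regulatory subunit of the ATP-hydrolysing part, had 0.33 ± 0.09 (adjusted p = 0.0106). The knockout minus wild-type differences on Wy14643 ran from -0.43 to 0.11 and those on control food from -0.07 to 0.19.

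Of the 6 initiation and nucleation members only Ulk1, the kinase that receives nutrient signals, was called. This call lay close to the p threshold and was not stable when single arrays were left out. Ulk1 read 8.0, 7.33, 7.67 and 7.15 in knockout mice on Wy14643 and 7.66, 7.70, 7.58 and 7.41 in knockout mice on control food, against 6.76, 7.05, 6.78 and 7.34 in wild-type mice on Wy14643 and 7.20, 7.87, 7.83 and 8.21 in wild-type mice on control food. The groups overlapped in every comparison. In wild-type mice the response was -0.80 ± 0.20 (adjusted p = 0.00828) and the call was lost without any 1 of 11 arrays. It was lost without each knockout array on control food (at -0.80, with a wider error), knockout replicate 3 on Wy14643 (-0.80), wild-type replicate 1, 2 or 3 on Wy14643 (-0.72, -0.82 or -0.73) and wild-type replicate 2, 3 or 4 on control food (-0.77, -0.78 or -0.65), with adjusted p from 0.0106 to 0.0346. The related kinase Ulk2, the lipid kinase complex members Becn1 and Uvrag and the lipid-binding Wipi1 and Wipi2 were not called, with wild-type responses from -0.39 (Wipi1) to 0.17 (Ulk2).

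Atg12, the ubiquitin-like protein that is coupled to Atg5, rose in wild-type mice on Wy14643. Atg12 read 6.40, 6.69, 6.56 and 6.52 in knockout mice on Wy14643 and 6.79, 6.41, 6.69 and 6.65 in knockout mice on control food, against 7.75, 7.80, 7.35 and 7.54 in wild-type mice on Wy14643 and 6.62, 6.59, 6.43 and 6.74 in wild-type mice on control food. The wild-type arrays on Wy14643 stood above all others and the other 3 groups overlapped. Atg12 had a wild-type response of 1.01 ± 0.12 (adjusted p = 3.55e-06), 2.01-fold, and a difference of the responses of -1.10 ± 0.16 (adjusted p = 0.000137). A second probe set gave a wild-type response of 1.22 ± 0.12. Its partners were not called. Atg5 had a wild-type response of -0.36 ± 0.09 (adjusted p = 0.00923) and Atg16l1 of -0.11 ± 0.15 (adjusted p = 0.707). Atg3, the enzyme that transfers Atg8 proteins to lipid, had -0.40 ± 0.08 (adjusted p = 0.00139), Atg7, which activates them, had 0.42 ± 0.13 (adjusted p = 0.0269), and the processing protease Atg4b had -0.04 ± 0.09 (adjusted p = 0.808), and none of these passed both thresholds.

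In the Atg8 family the LC3 genes rose and the GABARAP genes were not called. Map1lc3a read 9.34, 9.45, 9.28 and 8.95 in knockout mice on Wy14643 and 9.33, 9.21, 9.21 and 9.35 in knockout mice on control food, against 10.39, 10.47, 10.50 and 10.28 in wild-type mice on Wy14643 and 9.20, 9.42, 9.27 and 9.36 in wild-type mice on control food. Map1lc3b read 10.21, 10.28, 10.39 and 10.60 in knockout mice on Wy14643 and 10.14, 10.12, 10.31 and 10.41 in knockout mice on control food, against 11.11, 11.19, 11.05 and 11.34 in wild-type mice on Wy14643 and 10.43, 10.45, 10.34 and 10.42 in wild-type mice on control food. For both genes the 4 wild-type arrays on Wy14643 lay above the other 12. The wild-type response was 1.10 ± 0.10 (adjusted p = 3.23e-07) for Map1lc3a and 0.76 ± 0.10 (adjusted p = 2.22e-05) for Map1lc3b, and knockout mice on Wy14643 were lower than wild-type mice by differences of -1.16 ± 0.10 and -0.80 ± 0.10. The brightest Map1lc3a probe set is of a type that may share probes with other transcripts, and its second probe set gave a wild-type response of 1.31 ± 0.13 (called). When the probe sets of Map1lc3b were averaged, its wild-type response was 0.57 ± 0.08 (adjusted p = 3.77e-05) and its difference of the responses -0.53 ± 0.11 (adjusted p = 0.00334). Both were under the fold, so that these calls of Map1lc3b were lost. Gabarap, Gabarapl1 and Gabarapl2 had wild-type responses of -0.15 ± 0.07, -0.19 ± 0.10 and 0.13 ± 0.08, with adjusted p of 0.197, 0.255 and 0.337.

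Of the cargo receptors, Bnip3, which tethers mitochondria to Atg8 proteins, rose in wild-type mice. Bnip3 read 10.69, 10.71, 10.98 and 11.38 in knockout mice on Wy14643 and 10.38, 10.29, 10.54 and 10.59 in knockout mice on control food, against 11.09, 11.12, 11.20 and 11.39 in wild-type mice on Wy14643 and 10.54, 10.58, 10.77 and 10.33 in wild-type mice on control food. Both genotypes had higher values on Wy14643 without overlap between foods. Bnip3 had a wild-type response of 0.65 ± 0.14 (adjusted p = 0.00255), a knockout response of 0.49 ± 0.14 (adjusted p = 0.249) and a difference of the 2 of -0.16 ± 0.20 (adjusted p = 0.723), so that a difference between the genotypes was not shown. The wild-type call was lost without replicate 4 of wild type on Wy14643 (0.59) and without replicate 4 of wild type on control food (0.58). Sqstm1, the ubiquitin receptor p62, had a wild-type response of -0.25 ± 0.08 (adjusted p = 0.0403).

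The regulators Tfeb and Tfe3 were not called. Tfeb read 3.12, 3.43, 3.33 and 3.31 in knockout mice on Wy14643 and 3.00, 3.05, 3.08 and 3.19 in knockout mice on control food, against 2.74, 2.72, 2.90 and 3.11 in wild-type mice on Wy14643 and 3.18, 3.06, 3.45 and 3.09 in wild-type mice on control food. These are dim values, and on Wy14643 the knockout arrays lay above the wild-type arrays, by 0.43 ± 0.11 (adjusted p = 0.00867) and 1.35-fold, under the fold required. Tfe3 had a wild-type response of -0.10 ± 0.17 (adjusted p = 0.762). The array measures transcripts, and the movement of these factors between lysosome and nucleus was not measured.

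**Figure D3:**
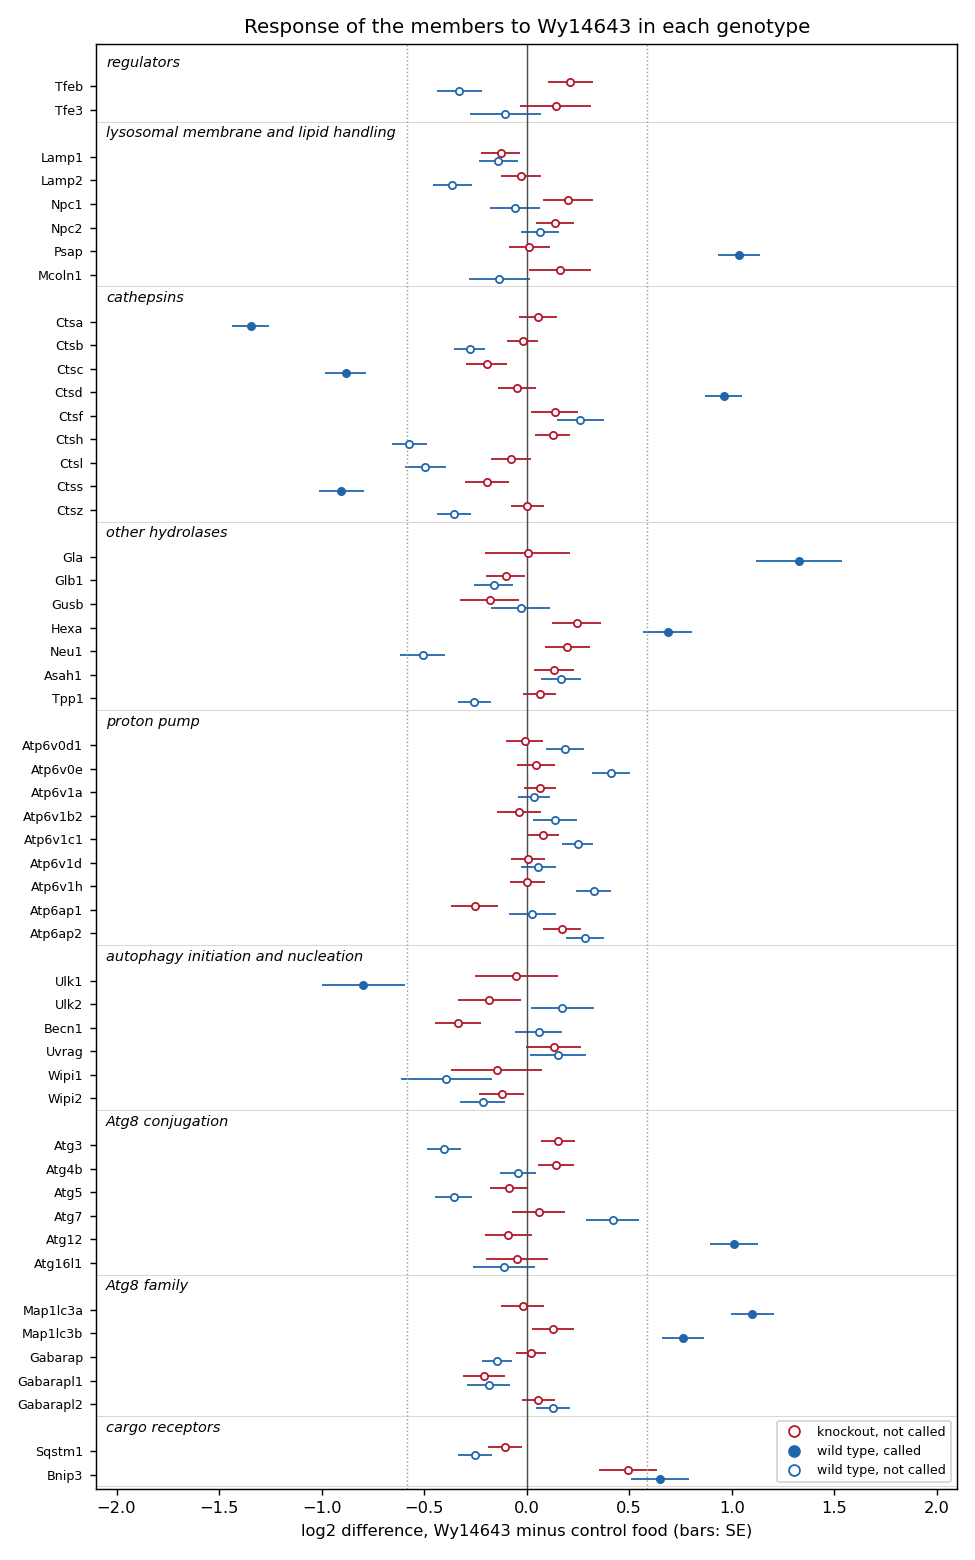
Log2 difference of Wy14643 minus control food (horizontal axis, bars are SE) for each of the 52 members by role, with knockout mice (red) above wild-type mice (blue). Filled points were called, dotted lines mark a fold of 1.5. The knockout values lie between -0.34 and 0.49 with 0 called, and the wild-type values between -1.35 and 1.33 with 12 called.

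A further 115 genes of the pathway were measured in 8 lists chosen by function. In the wild-type response 13 rose (11.3%, beside 7.72% of all genes) and 15 fell (13.0%, beside 6.74%), with a median of -0.07, and in the knockout response limma called 0 of 115, with 17 (14.8%) at an unadjusted p under 0.05, beside 10.3% of all genes. Between the genotypes on Wy14643, 15 (13.0%) were higher and 13 (11.3%) lower in knockout mice, beside 7.13% and 8.12% of all genes. Of the 5170 genes with a mean log2 above 6, 825 were higher and 696 lower, both larger shares than among the 115. On control food 0 of 115 were called, with 13 (11.3%) at an unadjusted p under 0.05, beside 9.60% of all genes. Of 25 further hydrolases, 4 rose and 6 fell in wild-type mice, so that both directions were present, as among the member hydrolases. Both were also present over all genes, with 7.72% called higher and 6.74% lower. Among genes with a mean log2 above 6 the shares were 12.4% and 15.9%. Gm2a, the activator protein that works with β-hexosaminidase, averaged 8.50 ± 0.11 in knockout mice on Wy14643 and 6.75 ± 0.07 in wild-type mice on Wy14643, against 8.24 ± 0.06 in wild-type mice on control food (SD, n = 4 each). Its wild-type response was -1.49 ± 0.08 (SE, adjusted p = 4.16e-10). Naglu, an enzyme of heparan sulfate breakdown, had -1.43 ± 0.12 (adjusted p = 8.18e-08). Arsa, the sulfatase of sulfatide, and Manba, β-mannosidase, rose with 1.28 ± 0.12 (adjusted p = 3.54e-07) and 1.17 ± 0.21 (adjusted p = 0.00049). On Wy14643 the knockout minus wild-type difference was 1.75 ± 0.08 for Gm2a, 1.46 ± 0.12 for Naglu, -1.0 ± 0.12 for Arsa and -1.65 ± 0.21 for Manba.

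Of 10 further proton pump subunits 1 rose and 2 fell in wild-type mice, where 7.72% of all genes were called higher and 6.74% lower. The V0 subunit Tcirg1, which is abundant in osteoclasts and macrophages, had -0.92 ± 0.13 (adjusted p = 3.13e-05), its relative Atp6v0a2 had 0.77 ± 0.12 (adjusted p = 0.000151) and the stalk subunit Atp6v1g1 had -0.62 ± 0.09 (adjusted p = 3.61e-05). Of 16 further membrane and sorting proteins 2 rose and 3 fell. Tmem192 rose by 0.79 ± 0.09 (adjusted p = 3.16e-06), while Gnptg, a subunit of the enzyme that makes the mannose 6-phosphate tag, had -0.72 ± 0.10 (adjusted p = 3.6e-05), the cystine transporter Ctns -0.70 ± 0.17 (adjusted p = 0.00682) and Cln3 -0.68 ± 0.15 (adjusted p = 0.00315).

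In the list of mTORC1 and lysosomal nutrient sensing, 1 of 22 genes rose and 1 fell in wild-type mice, beside 7.72% and 6.74% of all genes. Mtor, the kinase of the complex, averaged 6.99 ± 0.08 in knockout mice on Wy14643, 6.84 ± 0.10 in knockout mice on control food, 8.65 ± 0.06 in wild-type mice on Wy14643 and 7.08 ± 0.03 in wild-type mice on control food (SD, n = 4 each). Its wild-type response of 1.57 ± 0.08 (adjusted p = 9.13e-11), 2.96-fold, was larger than that of any of the 52 members. Folliculin, Flcn, fell with -0.88 ± 0.19 (adjusted p = 0.00275). Fnip2 and Tsc1 were called between the genotypes on Wy14643, higher in knockout mice by 0.86 ± 0.21 (adjusted p = 0.00653) and 0.82 ± 0.18 (adjusted p = 0.00291).

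Among further autophagy genes, Atg101 and Atg13 of the Ulk complex fell in wild-type mice, with -1.04 ± 0.17 (adjusted p = 0.000165) and -0.64 ± 0.14 (adjusted p = 0.00236), and Wdr45, a relative of the Wipi proteins, rose with 0.77 ± 0.10 (adjusted p = 1.22e-05), 3 calls among 16 genes of that list. Atg10, the enzyme that couples Atg12 to Atg5, fell with -0.74 ± 0.17 (adjusted p = 0.00313), the 1 call among 5 conjugation genes. The receptor Calcoco1 rose with 0.92 ± 0.20 (adjusted p = 0.00307), the 1 call among 8. Of 13 genes of autophagosome to lysosome fusion 3 rose and 0 fell. Snap29, Stx17 and Epg5 had 1.51 ± 0.16 (adjusted p = 1.3e-06), 0.68 ± 0.15 (adjusted p = 0.00356) and 0.66 ± 0.14 (adjusted p = 0.00218). Snap29 and Stx17 are SNARE proteins of the same fusion complex, and Epg5 is a tether.

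**Figure D4:**
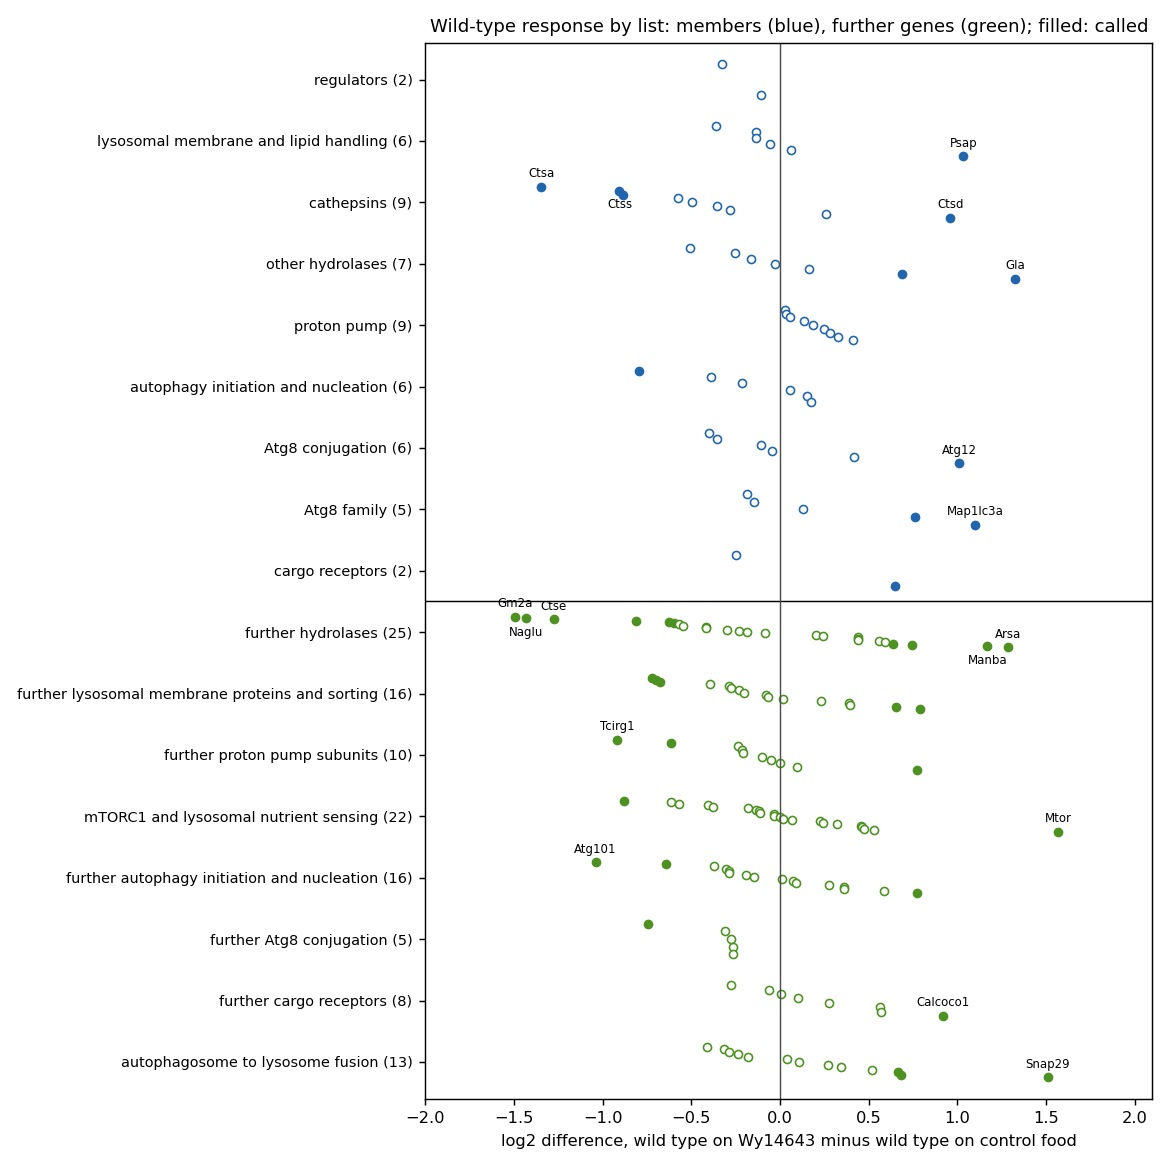
Log2 difference of wild-type mice on Wy14643 minus wild-type mice on control food (horizontal axis) for the 52 members (blue) and 115 further pathway genes (green), 1 point per gene, by list with the number of genes in parentheses. Filled points were called, and called genes beyond 0.9 in either direction are named. The 9 proton pump members lie between 0.03 and 0.41 with 0 called, and Mtor lies at 1.57.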

How the data were processed

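Liver RNA of 16 mice was measured on 1 array each. Per the labels, the intensity values were deposited by the authors after GCRMA 2.20 (the submitters' processing notes), which corrects background, quantile-normalizes the arrays and summarizes probes. Labels and methods differ in the RNA amount and labelling kit, and the methods give a different number of mice per group from the 4 used here. The deposited values were linear, not the log2 values that the design had assumed, and their log2 was taken with no offset. Of 45101 probe sets, 64 controls were left out, and 34945 were annotated to 1 gene, 932 to several and 9160 to none. Gene IDs of 34741 of the first matched RefSeq (GRCm38.p6). The brightest probe set stood for each of 18193 genes, of which 9010 had more than 1. The 52 members had 124 probe sets.

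With limma 3.58.1 in R 4.3.3, a mean was fitted for each of the 4 groups over 16 arrays, with empirical Bayes moderation, two-sided tests and Benjamini-Hochberg adjustment over 45037 probe sets in each of 5 comparisons. The methods' thresholds were kept, an adjusted p under 0.01 and a fold over 1.5. The script was tested on simulated data. The marker sums add intensities of different probe sets, so that the brightest weigh most. Beyond these sums, the choice of the brightest probe set and the limits on dim values, signals of different probe sets were not compared. The number of arrays limits the precision. Members called in the wild-type response, between genotypes on Wy14643 or in the difference of the responses were given per array, at most 5 per list by the genotype difference on Wy14643, and up to 4 called genes of each further list were named by size of difference. Atp6v0e and Tfeb were given per array after their values were seen. Members and lists were chosen with earlier results of these data known. Alternatives changed the probe set per gene, scaling, offset, filter on dim probe sets, moderation, array weights, thresholds, arrays in the fit, the replicate block and each array left out.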

Additional observations from a re-analysis of the deposited data

Results flagged for a closer look

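Single arrays stood apart from the other 3 of their group by Dixon's test in 10 of the 208 groups of 4 member values, and chance sets apart about 1 in 20. Among knockout mice on Wy14643, replicate 1 read 8.82 for Ctsc (the others 9.11 to 9.16) and replicate 4 read 4.19 for Atg16l1 (the others 4.84 to 4.95). Among knockout mice on control food, replicate 1 read 5.21 for Tfe3 (the others 5.44 to 5.49) and 8.29 for Npc1 (7.99 to 8.03), and replicate 4 read 11.74 for Lamp2 (11.61 to 11.62). Among wild-type mice on Wy14643, replicate 3 read 8.16 for Atp6v1d (8.24 to 8.25) and replicate 1 read 8.06 for Becn1 (8.26 to 8.28). Among wild-type mice on control food, replicate 1 read 11.13 for Ctsz (11.21 to 11.22) and 9.84 for Atp6ap2 (9.52 to 9.56), and replicate 2 read 2.47 for Gla (2.76 to 2.80).

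The response to Wy14643 differed between the genotypes in 11 members by the limma test of that difference, given as knockout response minus wild-type response on the log2 scale. The value was 1.40 for Ctsa, 0.71 for Ctss, 0.71 for Neu1, 0.70 for Ctsh and 0.69 for Ctsc, which all had the lower wild-type response. It was -1.32 for Gla, -1.12 for Map1lc3a, -1.10 for Atg12, -1.02 for Psap, -1.01 for Ctsd and -0.63 for Map1lc3b, which had the higher wild-type response.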

How the results depend on the processing

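No member's called difference changed direction under any alternative run. Over the members' differences, 7579 values stayed on their side of the threshold, 83 lost a call and 36 gained one. With a fold over 2, the wild-type response had 4 members higher and 1 lower, the genotype difference on Wy14643 had 2 higher and 4 lower, and the difference of the responses had 1 above 0. With no fold minimum, 9 members were higher in knockout mice on Wy14643 and 10 were lower in the wild-type response. With the mean of all probe sets of a gene, 2 were higher in knockout mice on Wy14643 and 3 had a difference of the responses above 0. On control food 1 member, Ctsf, was lower in knockout mice at an adjusted p under 0.05, with probe sets of mean log2 above 4 and with those above 6. Leaving out 1 array gave 7 to 8 members higher and 3 to 5 lower in the wild-type response, 3 to 5 higher and 7 lower in knockout mice on Wy14643, 0 to 1 lower on control food, and 3 to 6 above 0 and 4 to 6 below 0 in the difference of the responses.

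In the difference of the responses, Ctss was lost (0.65 to 0.70) without replicate 2 or 4 of knockout on control food or replicate 1 or 2 of wild type on control food. Gla was lost (-1.33 to -1.25) without replicate 1 or 2 of knockout on Wy14643, replicate 1, 2 or 3 of knockout on control food or replicate 2 of wild type on control food. Neu1 was lost (0.64 to 0.70) without replicate 1 or 3 of knockout on Wy14643, 2 or 3 of knockout on control food, 3 of wild type on Wy14643, or 2 or 3 of wild type on control food. Map1lc3b was lost (-0.65 to -0.57) without any array other than replicate 4 of knockout on Wy14643, 1 or 2 of knockout on control food, or 1 or 3 of wild type on Wy14643. Averaged probe sets ended calls of Gla, Neu1, Ctsl, Ctsf, Ctsc, Ulk1 and Map1lc3b in 1 or more comparisons, and the probe set of largest spread added calls of Ctsb and Lamp2. That probe set also ended the calls of Ctsc (0.42, adjusted p = 0.430) and Ctsh (0.62, adjusted p = 0.0138) in the difference of the responses and of Ulk1 (-0.69, adjusted p = 0.117) in the wild-type response. Atg3 gained a call in the difference of the responses under quantile normalization, at 0.60. The cause was not tested.

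Replicate numbers were shared by the groups, and same-numbered arrays deviated together slightly more than others (median r 0.048 against -0.015), but their r ran from -0.123 to 0.19, so that not every pair deviated together and they were taken to share only a number. With the replicate block, the wild-type response had 8 members higher and 3 lower, and Ulk1 lost its call at an adjusted p of 0.0187. The block gave 4 higher and 7 lower between genotypes on Wy14643, and 4 above 0 and 6 below 0 in the difference of the responses, where Neu1 lost its call at 0.0110. Dim members such as Gla, Tfeb and Glb1 lie near the background that GCRMA sets, and small differences there are less certain than in the 45 brighter members.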
